A study of Mus musculus with 12 samples.

Results

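The Cyp3a cytochromes of mouse liver were followed here through 8 transcript clusters, the units by which the array reports expression, out of 41345 on the array. A cluster was taken when the platform's gene annotation gave it the symbol of Cyp3a11, Cyp3a13, Cyp3a16, Cyp3a25, Cyp3a41a, Cyp3a44 or Cyp3a59. Of these 7 genes, 6 had a cluster with a single symbol. The other 2 clusters carried 4 symbols each, Cyp3a41a, Cyp3a41b, Cyp3a11 and Cyp3a44, and are called joint clusters 1 and 2 below. Cyp3a41a was measured only through these joint clusters.

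RNA came from the livers of 6 Ppara KO and 6 WT mice, all adult C57Bl/6 females aged 12 to 14 weeks, with 1 MoGene 2.0 ST array per animal. Fatty acids and fibrate drugs activate PPARα, the nuclear receptor made from Ppara. The sources used here do not give the disrupted part of Ppara, the litters, the time of day at collection or the feeding state. Values are RMA values on the log2 scale, so a difference of 1 is a doubling of signal.

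CYP3A enzymes are cytochromes P450 of the endoplasmic reticulum that oxidise many drugs, steroid hormones and bile acids. In liver they are among the most abundant P450s, and their genes are classical targets of the xenobiotic receptors PXR and CAR. Several mouse Cyp3a genes also depend on sex, age and growth hormone: Cyp3a41a and Cyp3a44 are known as female-predominant liver genes, and Cyp3a16 was first described in fetal liver. Cyp3a11 is the main form of adult liver in both sexes.

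In Ppara KO livers 2 of the 8 Cyp3a clusters changed, in opposite directions. The measured signal of Cyp3a16 fell 13.9-fold (95% interval 9.07 to 21.4), to a level in Ppara KO livers that was not shown to lie above background, and Cyp3a25 rose 1.96-fold (95% interval 1.48 to 2.58). No change was called for Cyp3a11, Cyp3a13, Cyp3a44, Cyp3a59 or the joint clusters. The calls come from limma with Benjamini-Hochberg adjustment over all 41345 clusters, at an adjusted p under 0.05, which called 5.24% of all clusters, 2.38% higher and 2.87% lower in Ppara KO. The median difference over the 8 clusters was -0.11, against 0.015 over all clusters. That median counts the joint clusters as 2, although they are nearly the same measurement. Over the 6 Cyp3a clusters with 1 symbol it was 0.004, against 0.010 over all clusters with 1 symbol. With an unadjusted p under 0.05, 3 of the 8 Cyp3a clusters would pass, against 18.4% of all clusters. Both called Cyp3a clusters also changed at least 1.5-fold, as did 1.76% of all clusters under the same rule (0.682% higher and 1.07% lower), and both carry 1 symbol, a class in which 6.98% of 23521 clusters were called.

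The 2 genes that changed each have a close relative in the family that was not called, and their promoter windows are printed here to show how alike these pairs are. The windows run from 250 bases before to 50 bases after the RefSeq start on GRCm38.p6, all on chromosome 5, and read 5′ to 3′ along the gene. They lie at chr5:145469674-145469973 (minus strand) for Cyp3a16, chr5:145805825-145806124 (minus strand) for Cyp3a44, chr5:146009569-146009868 (minus strand) for Cyp3a25 and chr5:146079008-146079307 (plus strand) for Cyp3a59. Capitals mark matches, on either strand, to the HNF4 motif CAAAGTCCA, the FOXA motif TGTTTAC and the nuclear receptor half-site motif AGGTCA.
Cyp3a16: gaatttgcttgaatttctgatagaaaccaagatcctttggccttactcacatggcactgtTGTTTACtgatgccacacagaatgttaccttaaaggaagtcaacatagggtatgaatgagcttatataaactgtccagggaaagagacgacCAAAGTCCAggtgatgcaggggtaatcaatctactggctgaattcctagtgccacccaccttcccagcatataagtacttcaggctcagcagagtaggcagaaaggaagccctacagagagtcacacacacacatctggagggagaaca
Cyp3a44: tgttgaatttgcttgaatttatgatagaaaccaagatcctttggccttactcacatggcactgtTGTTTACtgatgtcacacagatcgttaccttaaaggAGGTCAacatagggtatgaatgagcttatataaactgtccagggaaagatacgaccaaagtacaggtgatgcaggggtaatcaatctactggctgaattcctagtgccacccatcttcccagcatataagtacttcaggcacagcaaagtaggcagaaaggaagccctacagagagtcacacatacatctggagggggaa
Cyp3a25: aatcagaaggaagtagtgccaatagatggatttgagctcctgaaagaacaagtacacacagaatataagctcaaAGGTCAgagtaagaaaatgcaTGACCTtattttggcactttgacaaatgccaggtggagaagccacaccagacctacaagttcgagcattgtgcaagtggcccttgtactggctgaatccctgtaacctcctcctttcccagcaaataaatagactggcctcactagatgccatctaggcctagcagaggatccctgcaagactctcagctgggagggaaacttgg
Cyp3a59: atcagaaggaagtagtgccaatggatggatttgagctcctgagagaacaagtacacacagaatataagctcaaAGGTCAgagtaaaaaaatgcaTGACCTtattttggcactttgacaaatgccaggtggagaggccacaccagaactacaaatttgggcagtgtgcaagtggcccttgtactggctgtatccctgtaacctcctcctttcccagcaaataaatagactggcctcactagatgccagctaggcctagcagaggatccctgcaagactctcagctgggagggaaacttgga

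The windows of Cyp3a16 and Cyp3a44 were 95.3% identical over 298 aligned positions, and those of Cyp3a25 and Cyp3a59 96.3% identical over 299, gaps inside the alignment included. Between Cyp3a16 and Cyp3a25 the identity was 54.2%, and between Cyp3a16 and Cyp3a11 it was 76.3%. Cyp3a41a, whose window was 94.6% identical to that of Cyp3a16, could not be read apart from its relatives on the array.

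Cyp3a25 and Cyp3a59 held the same motif matches, and Cyp3a16 and Cyp3a44 differed in the HNF4 motif and the half-site. The FOXA motif was found in Cyp3a16, Cyp3a44, Cyp3a41a and Cyp3a11, and in 3.65% of 32851 mouse promoter windows of the same length. The HNF4 motif was found in Cyp3a16, Cyp3a41a and Cyp3a11 but not in Cyp3a44, and in 0.475% of all windows. The half-site AGGTCA occurred in Cyp3a44 and Cyp3a11 once each and in both Cyp3a25 and Cyp3a59 on each strand, and in 16.3% of all windows. The letters TATAAA occurred in Cyp3a16, Cyp3a44, Cyp3a41a and Cyp3a11, and in 13.6% of windows, and the ONECUT motif ATCAAT in Cyp3a16, Cyp3a44 and Cyp3a41a, and in 7.54%. For the PPAR response element, only the exact half-site letters repeated with 1 base between them were searched. None of the 7 windows held them, and 13 of the 32851 windows did (0.0396%). Near matches were not searched, so the windows were not shown to lack such an element. In the printed windows of Cyp3a25 and Cyp3a59, the letters agctcaaAGGTCA differ from the searched ones at 1 position. Whether PPARα binds there was not tested. The STAT5 motif TTCNNNGAA (8.3% of windows), the PAR bZIP motif TTANGTAA (2.32%) and the E-box CACGTG (7.15%) were in none of the 7 either. All motifs were searched on both strands, and a match or its absence describes the letters of these windows only.

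**Figure D1:**
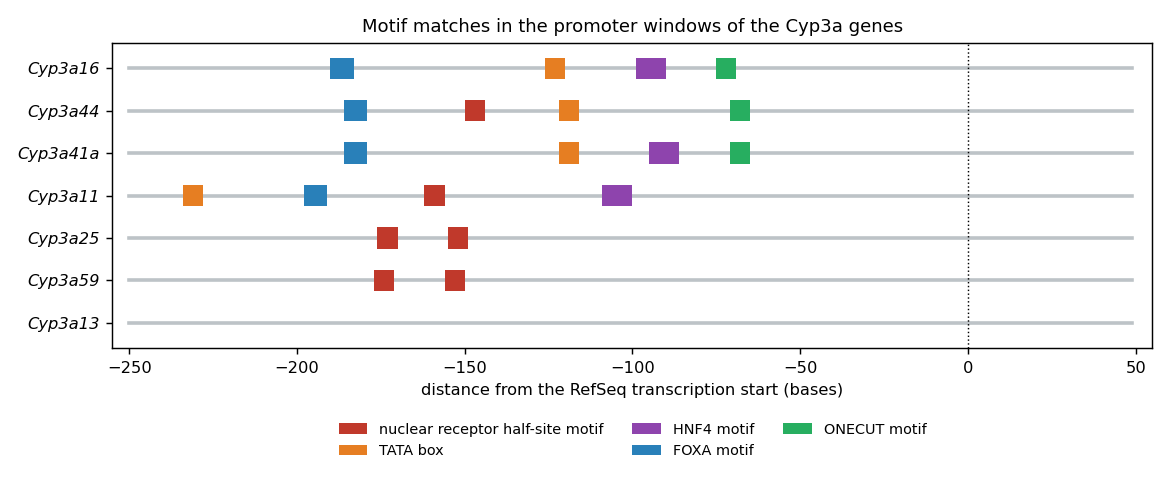
Motif matches in the promoter windows of the 7 Cyp3a genes, drawn by distance in bases from the RefSeq transcription start (dotted line), with 1 grey line per window and coloured blocks for matches. The Cyp3a16, Cyp3a44 and Cyp3a41a windows share FOXA, TATAAA and ONECUT matches in the same order. Cyp3a25 and Cyp3a59 share a pair of half-sites, and Cyp3a13 has no match. The label TATA box stands for the letters TATAAA only. They begin at -126 in Cyp3a16, -122 in Cyp3a44 and Cyp3a41a and -234 in Cyp3a11, and were not shown to act as a TATA box.

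Cyp3a16 had log2 values from 2.38 to 3.94 with a median of 3.14 in Ppara KO livers, against 5.98 to 7.65 with a median of 6.95 in WT livers. Every Ppara KO liver lay below every WT liver, so the groups did not overlap. Over all clusters, 4.45% had 6 values of one genotype outside the 6 of the other. The difference was -3.80 ± 0.29 (log2, Ppara KO minus WT, limma SE, n = 6 each), with a limma adjusted p of 5.95e-06 and an exact 2-sided permutation p of 0.00216, the smallest that 6 against 6 can give. The means were 3.11 ± 0.54 in Ppara KO livers and 6.91 ± 0.59 in WT livers (SD, n = 6 each). No detection call was used here, and RMA compresses differences at low signal. The fold and its interval are therefore those of the signal and may understate the fold in RNA, and how much Cyp3a16 RNA remained in Ppara KO livers cannot be read from them.

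Cyp3a25 encodes a form found in both liver and intestine. Its values ran from 8.17 to 9.04 with a median of 8.58 in Ppara KO livers, and from 7.08 to 8.20 with a median of 7.62 in WT livers. A single pair of animals overlapped: Ppara KO 5, the lowest of its group at 8.17, lay just under WT 5, the highest of its group at 8.20. The difference was 0.97 ± 0.19 (log2, limma SE, n = 6 each), with a limma adjusted p of 0.00833 and an exact 2-sided permutation p of 0.00433. Tested with limma's treat against a change of 1.2-fold in place of no change, Cyp3a25 was not called (adjusted p 0.105). Nor was it called by limma with the replicate number as a block (adjusted p 0.0680).

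Cyp3a59, the neighbour of Cyp3a25 with the near-identical promoter window, stood at 6.64 to 7.75 with a median of 7.04 in Ppara KO livers, against 6.62 to 7.36 with a median of 6.69 in WT livers. The groups overlapped over most of their range. The difference of 0.29 (95% interval -0.09 to 0.66) had a limma adjusted p of 0.429, and leaving out single animals gave 0.16 (without Ppara KO 6) to 0.40 (without WT 5), with no call. The probes of Cyp3a25 and Cyp3a59 were not checked for matches to both genes. Those of the other Cyp3a clusters, Cyp3a16, Cyp3a44 and Cyp3a11 among them, were not checked for matches to relatives either.

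Cyp3a44 ran from 7.20 to 8.76 with a median of 7.68 in Ppara KO livers, against 7.82 to 8.17 with a median of 8.11 in WT livers. In 4 Ppara KO livers it lay below every WT liver, and in Ppara KO 6 it lay above all of them. The difference of -0.24 (95% interval -0.69 to 0.20) had a limma adjusted p of 0.606, and single animals moved it both ways, to -0.44 without Ppara KO 6 (limma adjusted p 0.0872) and to -0.12 without Ppara KO 5 (limma adjusted p 0.816).

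The joint clusters, which the annotation assigns to Cyp3a41a, Cyp3a41b, Cyp3a11 and Cyp3a44 together, differed from each other by at most 0.027 in any animal. In effect they are 1 measurement, although both are kept in the counts. Joint cluster 1 stood at 11.63 to 12.09 with a median of 11.84 in Ppara KO livers, against 11.97 to 12.07 with a median of 12.02 in WT livers. The 6 WT livers lay within 0.11 of each other, while the Ppara KO livers spread over 0.46 on both sides of them. The differences were -0.17 (95% interval -0.35 to 0.01, limma adjusted p 0.316) for joint cluster 1 and -0.19 (95% interval -0.37 to -0.01, limma adjusted p 0.253) for joint cluster 2. A signal annotated to several transcripts cannot be split between them, so these values give no level of Cyp3a41a by itself.

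Cyp3a11 had values of 10.33 to 10.86 with a median of 10.51 in Ppara KO livers and 10.43 to 10.60 with a median of 10.49 in WT livers. The WT range lay inside the Ppara KO range. The difference was 0.06 (95% interval -0.13 to 0.26, limma adjusted p 0.793). Both ends of that interval are smaller in size than the lower bound of the rise of Cyp3a25.

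Cyp3a13, which lies apart from the other genes on chromosome 5 and is well expressed in intestine, stood at 9.23 to 9.71 with a median of 9.54 in Ppara KO livers, against 9.30 to 9.92 with a median of 9.53 in WT livers. The groups overlapped almost fully. The difference was -0.05 (95% interval -0.30 to 0.19, limma adjusted p 0.872), and its sign was not stable when single animals were left out.

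**Figure D2:**
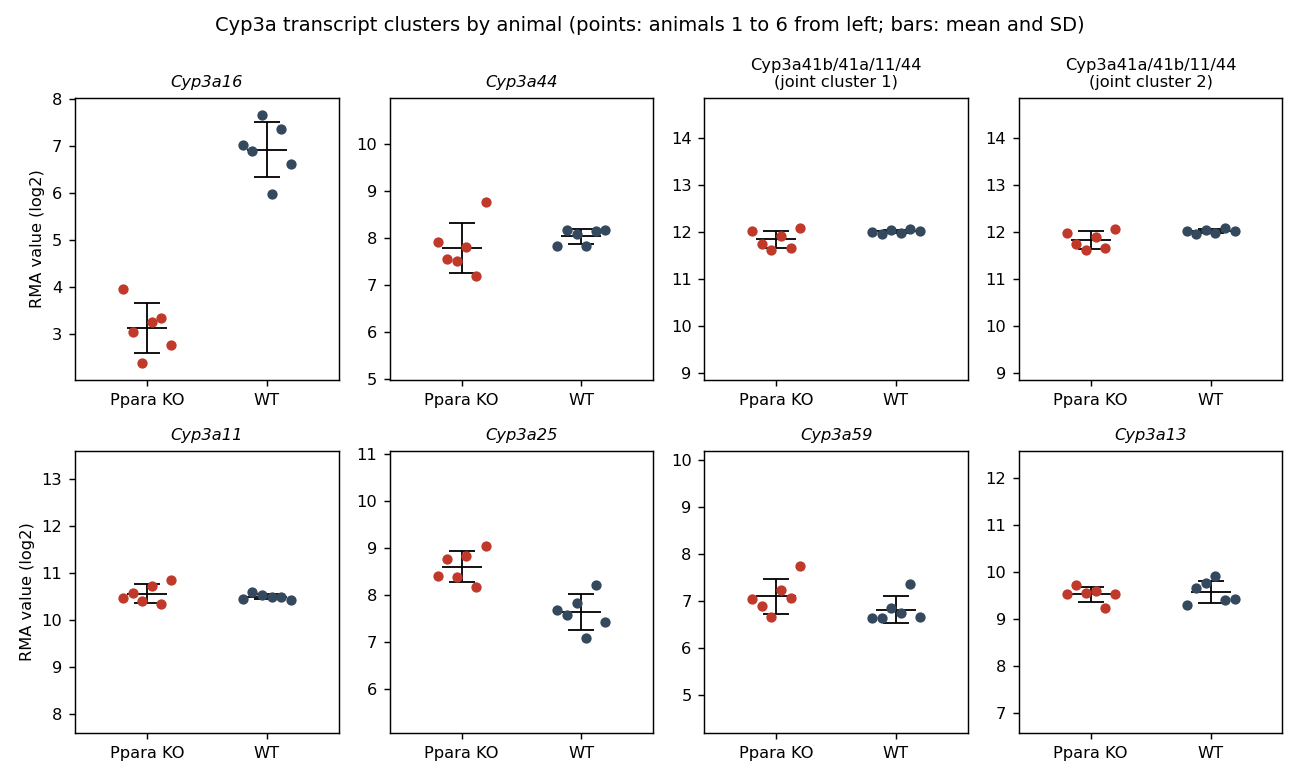
RMA values (log2) of the 8 Cyp3a transcript clusters in each animal, with Ppara KO in red and WT in dark blue. Each panel spans 6 log2 units around its own centre, points are animals 1 to 6 from left to right, and bars give the mean and SD. Only Cyp3a16 shows groups that do not overlap, and Cyp3a25 overlaps by 1 pair of animals.

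**Figure D3:**
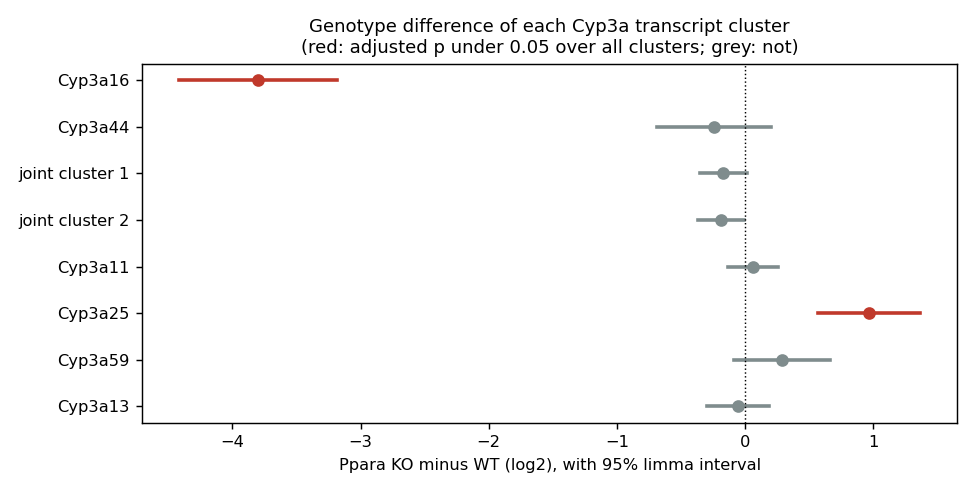
Difference of Ppara KO minus WT (log2) for each Cyp3a cluster, with the 95% limma interval over 6 arrays per genotype. The red clusters, Cyp3a16 at -3.80 and Cyp3a25 at 0.97, passed an adjusted p under 0.05, and the 6 grey ones did not.

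A called gene need not differ from an uncalled one, so the members were also compared with each other. For each of the 28 pairs of clusters, the log2 difference between both clusters within an animal was compared between genotypes with an exact 2-sided permutation test, adjusted by Benjamini-Hochberg over the 28 pairs. The genotype difference of Cyp3a16 differed from that of all 7 other clusters, and so did that of Cyp3a25, with adjusted p 0.00466 (exact) in each of these pairs. Against Cyp3a44, its nearest match in promoter sequence, Cyp3a16 differed by -3.56 (95% limma interval -4.35 to -2.76). Cyp3a59 minus Cyp3a25, the other pair with near-identical windows, was -0.68 (95% limma interval -1.01 to -0.35). The difference of Cyp3a16 was known from earlier results of these data when the pairs were chosen.

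Of the 15 pairs without Cyp3a16 and Cyp3a25, 5 passed as well. The joint clusters are in effect 1 measurement, so a pair with joint cluster 1 and the same pair with joint cluster 2 repeat each other. Cyp3a59 stood 0.53 above Cyp3a44 in its genotype difference (95% limma interval 0.17 to 0.89, exact adjusted p 0.0202), and 0.46 and 0.47 above the joint clusters. Cyp3a11 stood above joint cluster 1, the difference coded as joint cluster 1 minus Cyp3a11 being -0.23 (95% limma interval -0.40 to -0.06, exact adjusted p 0.0202), and above joint cluster 2, where it was -0.25. The joint clusters and Cyp3a44 were not told apart, with a difference of 0.07 (95% limma interval -0.28 to 0.43) for joint cluster 1. The joint clusters are also annotated to Cyp3a11 and Cyp3a44, so pairs of either gene with them set a gene against a signal that may include it.

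**Figure D4:**
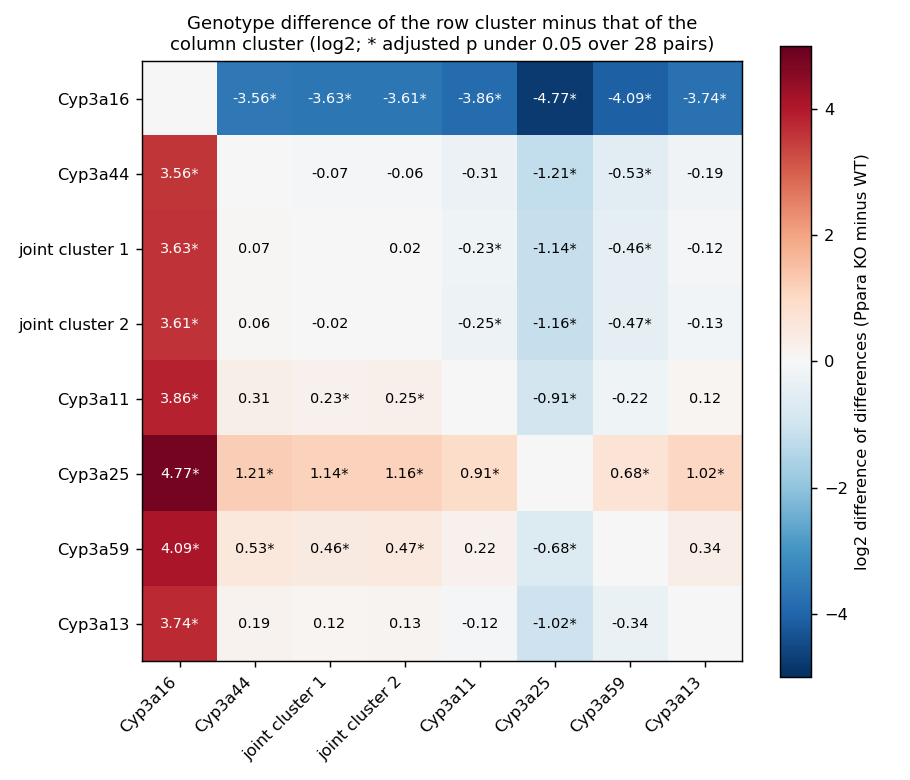
Genotype difference (Ppara KO minus WT, log2) of the row cluster minus that of the column cluster for the 8 Cyp3a clusters, with red above and blue below 0. Asterisks mark pairs with an exact permutation p under 0.05 after adjustment over 28 pairs: 18 pairs pass, and every pair with Cyp3a16 or Cyp3a25 is among them.

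For part of the family the SD among Ppara KO livers was larger than among WT livers. The SD was 0.54 in Ppara KO and 0.16 in WT for Cyp3a44, 0.20 and 0.06 for Cyp3a11, and 0.19 and 0.04 for joint cluster 1. A ratio of SDs at least as high as that of Cyp3a44 was found in 1.34% of all clusters, for Cyp3a11 in 1.21% and for joint cluster 1 in 0.285%. Ppara KO 6 had the highest Ppara KO value in 6 of the 8 clusters, the exceptions being Cyp3a16 and Cyp3a13. Without it the Ppara KO SD was 0.28 for Cyp3a44, 0.15 for Cyp3a11 and 0.17 for joint cluster 1. These clusters share target genes by annotation, so they are not independent observations of this spread, and the SDs were not tested.

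Within genotypes the same clusters went up and down together from animal to animal, whereas Cyp3a16 and Cyp3a13 did not follow them. Over the 12 animals, after each genotype's mean was removed, Pearson's r was 0.84 between Cyp3a44 and joint cluster 1, 0.80 between Cyp3a44 and Cyp3a11, and 0.69 between Cyp3a25 and Cyp3a59. For Cyp3a16, r with the other clusters ran from -0.28 for Cyp3a13 to 0.37 for Cyp3a25. These values describe 12 arrays, and the clusters share arrays and, in part, annotated genes.

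The same measure was taken against 18614 clusters with 1 symbol outside the family. Cyp3a25 was most like Golph3, the gene of a Golgi phosphoprotein (r = 0.97), then Srp54c, a gene of the signal recognition particle (r = 0.89), and Sec61a2, which encodes a subunit of a protein translocation channel (r = 0.88). Cyp3a16 was most like Plxdc2 (r = 0.92), Misp (r = 0.90) and Aebp1 (r = 0.88). None of these 6 genes was called between genotypes, with differences from -0.28 for Aebp1 to 0.23 for Golph3. They are the top of 18614 candidates over only 12 arrays.

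Neighbouring genes outside the family were not called. In the RefSeq gene order the family forms a run of 11 genes and pseudogenes on chromosome 5, and Cyp3a16 and Cyp3a25 are separated in it by the genes Cyp3a41b, Cyp3a41a, Cyp3a44 and Cyp3a11 and by pseudogenes. The 3 measured genes before the run, Zkscan5, Zfp655 and Zscan25, had differences of -0.15, -0.05 and -0.14, and the 3 after it, Rnf6, Cdk8 and Wasf3, of -0.05, 0.11 and 0.12, with limma adjusted p from 0.362 to 0.870. Cyp3a57, a further gene of the run outside the members, had log2 values of 1.85 to 2.37 in Ppara KO livers and 1.91 to 2.33 in WT livers, with no call (limma adjusted p 0.959).

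Calls were also frequent among other P450 genes. The array held 90 other P450 clusters with 1 symbol, of which 23 (25.6%) were called, 15 higher and 8 lower in Ppara KO. Of the Cyp3a clusters with 1 symbol 2 of 6 (33.3%) were called, and with the joint clusters included 2 of 8 (25%). Among those called lower was Cyp4a14, a fatty acid omega-hydroxylase gene, with a difference of -5.59.

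The averages of hepatocyte and enterocyte markers overlapped between genotypes, while that of adipocyte markers was higher in some WT livers. The 8 hepatocyte markers averaged 11.03 to 11.23 in Ppara KO livers and 11.03 to 11.21 in WT livers, with 0 calls by limma and 1 at an unadjusted p under 0.05. Pck1, a gluconeogenic enzyme gene singled out after its values were seen, did not overlap by itself, at 11.81 to 12.15 in Ppara KO livers and 11.39 to 11.80 in WT livers (limma adjusted p 0.0726). The 8 enterocyte markers, examined because intestine also expresses Cyp3a genes, averaged 4.00 to 4.16 in Ppara KO livers and 3.94 to 4.16 in WT livers, with 0 limma calls and 0 at an unadjusted p under 0.05. The 8 measured adipocyte markers averaged 5.24 to 5.46 in Ppara KO livers and 5.38 to 6.94 in WT livers, with a median difference of -0.75. Of these 8, Lipe was called lower and 6 had an unadjusted p under 0.05. WT 1, 3 and 5 were highest, at 6.21, 6.89 and 6.94. These same 3 livers had the highest WT values of Cyp3a16, 7.01 to 7.65 against 5.98 to 6.88 in WT 2, 4 and 6, and of Cyp3a25, 7.68 to 8.20 against 7.08 to 7.57. They were also highest for joint cluster 2, at 12.03 to 12.09 against 11.97 to 12.02. In the remaining Cyp3a clusters, joint cluster 1 among them, the ranges of these 2 sets of WT livers overlapped. Without WT 1, 3 and 5 the difference of Cyp3a16 was -3.37 (limma adjusted p 7.79e-04) and that of Cyp3a25 was 1.24 (limma adjusted p 0.0135). In whole liver, fewer cells of a type and less RNA per cell cannot be told apart. Ppara itself read 7.81 to 8.16 in Ppara KO livers and 7.71 to 8.14 in WT livers, and whether its cluster covers the disrupted part is not given, so it does not check the genotype labels.

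Of 19 measured receptors and factors known to act on Cyp3a genes, 2 were called higher, 2 lower and 15 were not called, with a median difference of 0.05 against 0.015 over all clusters. For this and the following lists, the share called was 5.24% over all clusters and 6.98% over those with 1 symbol. Nr1i3, the gene of CAR, rose 1.68-fold, with a log2 mean of 10.29 ± 0.13 in Ppara KO livers and 9.54 ± 0.08 in WT livers (SD, n = 6 each, limma adjusted p 5.36e-05). Cebpa, which encodes the hepatocyte factor C/EBPα, rose by 0.38 (limma adjusted p 0.00372). Foxa2, a pioneer factor gene, fell by 0.48 (limma adjusted p 0.0279) and Esr1, the estrogen receptor gene, fell by 0.51 (limma adjusted p 0.0447). Nr1i2, the gene of PXR, chosen for mention after its value was seen, had a difference of 0.23 without a call (limma adjusted p 0.121). Hnf4a and Rxra, which encode HNF4α and the partner receptor of PXR, CAR and PPARα, had differences of 0.12 and 0.05 without a call.

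Of 20 other genes listed as targets of PXR or CAR, 4 were called higher, 4 lower and 12 were not called. Whether these receptors induce each of them was not checked, and some, such as Cyp2b9 and Cyp2b13, are also on the female-biased list below. Abcc3 (0.62), Slco1a4 (0.83), both transporter genes, and the P450 genes Cyp2a4 (0.86) and Cyp2a5 (1.43) rose in log2 units. Cyp2b10, the usual marker of CAR activity, fell by 1.63. The sulfotransferase gene Sult2a1 fell by 3.09 in signal, likewise without a detection call, the P450 gene Cyp2b9 fell by 0.29 and the glutathione transferase gene Gstt1 fell by 0.24. Cyp2c29, another P450 gene, and Papss2, which makes the sulfate donor of sulfotransferases, had differences of 0.14 and -0.11 without a call. The limma adjusted p of the 8 called genes ran from 1.86e-04 for Abcc3 to 0.0406 for Cyp2b9.

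The 4 PAR bZIP factors, which bind promoters of many P450 genes in a daily rhythm, were all called. Dbp (3.49), Tef (2.21) and Hlf (0.69) rose in log2 units, and Nfil3, which represses through the same sites, fell by 1.23. The limma adjusted p was at most 5.32e-04, and the groups did not overlap for any of the 4. The time of day at collection is not given, and the part of these factors in the Cyp3a differences was not tested.

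Enzymes that P450s depend on moved in part. Of 4 measured electron donors or other partners of P450s, Cyb5r3, the cytochrome b5 reductase gene, fell by 1.00 (SE 0.056, limma adjusted p 4.57e-07). Pgrmc1 and Cyb5b had differences of 0.08 and 0.01 without a call. The remaining gene of this list, Cyb5a, the cytochrome b5 gene, was named after its values were seen. It had a difference of 0.22 without a call (limma adjusted p 0.0587), although its groups did not overlap. Por, the main electron donor of P450s, had no cluster with 1 symbol. In haem synthesis 1 of 7 genes rose and 3 fell. Alas1, the rate-limiting enzyme gene of the pathway, rose 2.31-fold (limma adjusted p 0.00149), while on the log2 scale Cpox fell by 0.41, Uros fell by 0.42 and Ppox fell by 0.30, all genes of further enzymes of the pathway. Alad and Fech, the genes of an early and of the last enzyme, had differences of -0.15 and 0.01 without a call.

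Growth hormone sets the sex pattern of several Cyp3a genes, and of 13 genes of its signalling 1 rose and 2 fell. Stat5a fell by 0.77 (limma adjusted p 7.11e-05) and Stat5b, the main mediator of growth hormone in liver, by 0.60 (limma adjusted p 0.00128). Ghr, the receptor gene, rose by 0.29, and Igf1 had a difference of -0.25 without a call (limma adjusted p 0.0903), as did Trim24 with -0.04. Of 19 female-biased liver genes outside the family 6 fell and 4 rose, with a median difference of -0.07. The falls included Cyp4a14, Abcd2, a peroxisomal transporter gene (-2.10), A1bg, a plasma glycoprotein gene (-2.91), and Sult2a1, and the rises were Cyp2a4, Ntrk2 (0.92), Cyp17a1 (0.36) and Acot3 (0.80). The P450 genes Cyp2c69 and Cyp2b13 had differences of -0.14 and 0.04 without a call. Of 24 male-biased genes 8 rose and 2 fell, with a median difference of 0.18. Among the rises were Cyp7b1, an oxysterol hydroxylase gene (1.15), Susd4 (1.23), Mup21, a major urinary protein gene (1.48), and C6, a complement gene (1.07), while Elovl3 fell by 1.72 and Selenbp2 fell by 0.66. Mup3 and Cyp2f2 had differences of 0.18 and 0.11 without a call. These lists were written with earlier results of these data known, so their directions are no independent evidence.

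**Figure D5:**
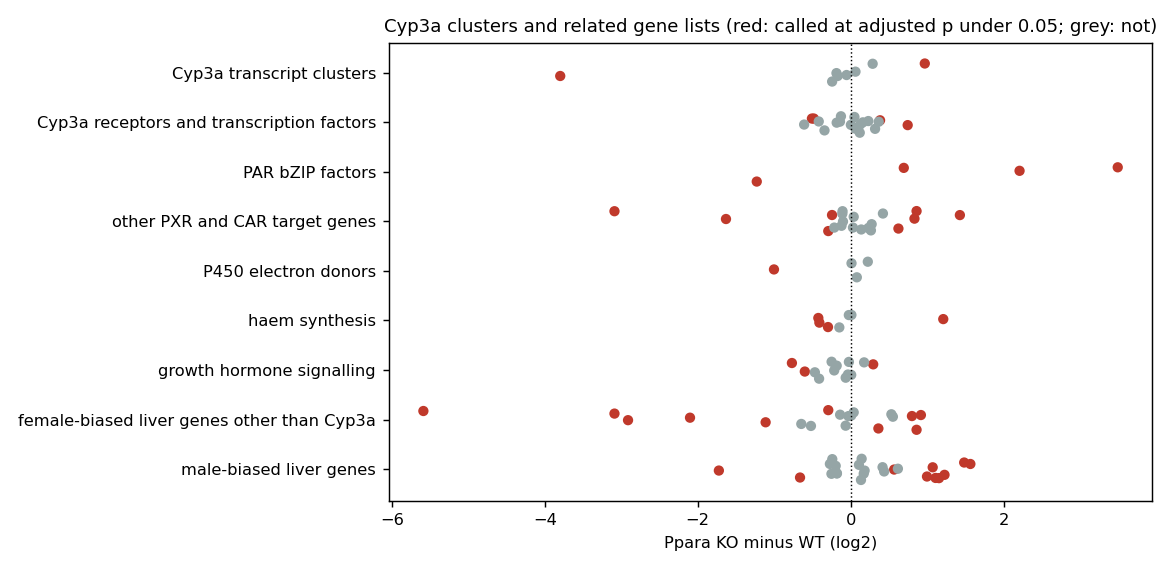
Differences of Ppara KO minus WT (log2) for the 8 Cyp3a clusters and the genes of 8 related lists, 1 point per cluster or gene, red where called at an adjusted p under 0.05 and grey where not; vertical scatter within a row has no meaning. Cyp3a16 at -3.80 and Cyp3a25 at 0.97 are the called Cyp3a points. The lists hold calls on both sides of 0 except the row of P450 electron donors, whose single call is Cyb5r3. That row also holds other partners of P450s.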

How the data were processed

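The authors deposited 1 log2 value per transcript cluster and animal, with RMA and Partek named in the submitters' processing notes; versions and settings are not given in the sources used here. Because RMA equalises the distribution of values between arrays, a shift common to nearly all transcripts is removed. Array medians were 4.13 to 4.17.

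All 41345 clusters were fitted with limma 3.58.1 in R 4.3.3 (lmFit and eBayes, 2-sided, 1 mean per genotype, no covariate), with Benjamini-Hochberg adjustment over all of them and calls at an adjusted p under 0.05. Single values were also compared with an exact permutation test over 924 assignments. Precision is set by the 6 arrays per genotype: the median SE of a difference was 0.107. The annotation gave 1 symbol to 23521 clusters, several to 1814 and none to 16010. For list genes with several single-symbol clusters, the one with the highest mean was used.

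Named genes were every member cluster, then per list up to 4 called genes with the smallest adjusted p and 2 uncalled ones with the highest level, the 3 nearest measured genes on either side of the Cyp3a run, and the 3 genes most like each called member by correlation. Others, among them the rest of counts of 5 or fewer, were named after their values were seen. The members and lists were chosen with earlier results of these data known. The erythroid markers had no cluster with 1 symbol. Cholangiocyte, stellate, endothelial, Kupffer, lymphocyte and acinar markers had 0 limma calls, with 2 of 4, 1 of 5, 2 of 5, 2 of 5, 1 of 3 and 0 of 3 at an unadjusted p under 0.05. Promoter windows are those of RefSeq (GRCm38.p6), found for all 7 members, the first listed per gene, and were aligned globally with free end gaps with Biopython 1.88. The fit was tested on simulated data. Alternatives covered the variance prior, array weights, renormalization, centring, filters, thresholds, the replicate number as a block and animals left out.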

Additional observations from a re-analysis of the deposited data

Results flagged for a closer look

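In 170 groups of 6 animals examined for the genes and marker means named in the report, 5 held an animal set apart from the other 5; chance alone sets apart about 1 in 20 groups. Cyp3a59 was at 7.36 in WT 5, against 6.62 to 6.84 in the other WT livers. Sec61a2 was at 5.89 in the same animal, against 5.39 to 5.56. Dbp was at 7.09 in WT 2, against 5.99 to 6.33 in the other WT livers, and C6 was at 7.39 in WT 4, against 6.70 to 6.94. Mup3 was at 12.72 in WT 6, against 12.56 to 12.61 in the other WT livers.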

How the results depend on the processing

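Cyp3a16 kept its direction and call in all 21 alternatives, with differences from -3.99 to -3.37, and Cyp3a25 in 20 of 21, from 0.86 to 1.24. With the replicate number as a block, Cyp3a25 lost its call (adjusted p 0.0680), leaving 1 Cyp3a cluster called, and 1099 of all clusters were called, against 2168. Deviations of same-numbered animals correlated at -0.045 to 0.042, which gave no sign that the numbers pair the animals. These values cannot show whether pairing acts on single genes. Treat against a 1.2-fold change called Cyp3a16 but not Cyp3a25 (adjusted p 0.105), so 1 Cyp3a cluster, and 317 of all clusters. The count over all clusters was 640 without WT 1, 3 and 5, 857 at an adjusted p under 0.01 and 726 with at least a 1.5-fold change. With 1-symbol clusters alone, 10 of the pairs differed, since fewer pairs were tested. Cyp3a13, called in none of its alternatives, changed sign without Ppara KO 5 (0.0044) and without WT 4 (0.015), with -0.11 to 0.015 over single animals left out; the cause was not tested. Leaving out 1 animal at a time gave 1625 to 1964 calls over all clusters, 2 Cyp3a calls each time and 18 or 19 pairs. Under another scaling the list counts moved in 2 cases: 7 female-biased genes lower with median centring, and 1 cholangiocyte marker lower with quantile normalization repeated. Low-signal clusters such as Cyp3a16 in Ppara KO livers have folds that RMA compresses.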
